A study of Homo sapiens with 24 samples.

Results

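The semaphorins, plexins, neuropilins, ephrins and Eph receptors are the ligands and receptors of a pair of signalling systems that steer axons and migrating cells. Their genes were chosen by symbol, as protein-coding genes of semaphorin classes 3 to 7, the plexins, the 2 neuropilins, the ephrins and the Eph receptors. This gave 53 genes of the 19586 protein-coding genes in the table, which were 20 semaphorins, 9 plexins, 2 neuropilins, 8 ephrins and 14 Eph receptors. Expression was measured by RNA sequencing in SW1783, a human astrocytoma cell line, after 24 h with an extract of Schisandrae Fructus, the dried fruit of Schisandra. In batch A the cells received vehicle A or the water extract, WESF, at 20 µg/mL (low), 100 µg/mL (medium) or 500 µg/mL (high). In batch B they received vehicle B or the extract made with ethanol, EESF, at 12.4 µg/mL (low), 62 µg/mL (medium) or 310 µg/mL (high). Both vehicles were PBS with 0.1% DMSO. The 8 groups held 3 libraries each, 24 in all. Each group was the same cell line, so the results describe 1 tumour-derived line, and the batch was that named in the sample labels. In the study's viability tests the high dose of WESF was not toxic and that of EESF was mildly toxic. The totals of expected counts, RSEM's estimates of the reads of each gene, were 26447834 to 28461841 in vehicle A and 20731749 to 24692309 at the high dose of WESF. They were 18727797 to 20465712 in vehicle B and 29659110 to 32567395 at the high dose of EESF, so that the high dose was the shallower group in batch A and the deeper one in batch B. No label says whether libraries of a group came from separate cultures, so the p-values measure the spread between these libraries, which may be technical.

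Semaphorins are secreted or membrane-bound ligands. Most bind plexins, whose cytoplasmic part inactivates small GTPases of the Ras family, and the secreted class 3 semaphorins usually need a neuropilin as co-receptor. Ephrins are membrane-bound ligands of the Eph receptor tyrosine kinases, ephrin-A with a lipid anchor and ephrin-B with a transmembrane segment, so both partners signal at points where cells touch. Members of both systems are known from glioma as well as from the developing nervous system.

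Levels of single genes are given as CPM, the counts of a gene relative to its library's TMM-scaled total. Guidance genes are compared with each other only after division by the length of their exons in kb. Within the marker lists, genes are ranked by CPM without this division. By mean CPM per kb, the Eph receptor EPHA2 (66.7 in vehicle A and 65.4 in vehicle B) and the co-receptor NRP1 (63.8 and 64.4) were the most abundant of the 53 genes. They were followed by the secreted ligand SEMA3C (54.8 and 54.7) and by PLXNB2 (39.7 and 38), the leading plexin. EFNB2 led the ephrins with 20.4 and 20.7 CPM per kb, about the level of EPHB2, EPHB4 and NRP2. At the other end, EPHA6, EPHA8 and EPHA10 never had more than 1 count in a library, EPHA7 no more than 2, SEMA5B 3, SEMA3E 4, and EFNA2 and SEMA3G 6. These 8 genes passed the filter on low counts in no comparison. SEMA6A, with 2 to 14 counts, passed it only in the low-dose comparisons and was not called there. SEMA4A passed it only in the comparisons that hold a high-dose group. The remaining 43 genes were tested in every comparison, so 44 were tested at the high dose of each extract.

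**Figure D1:**
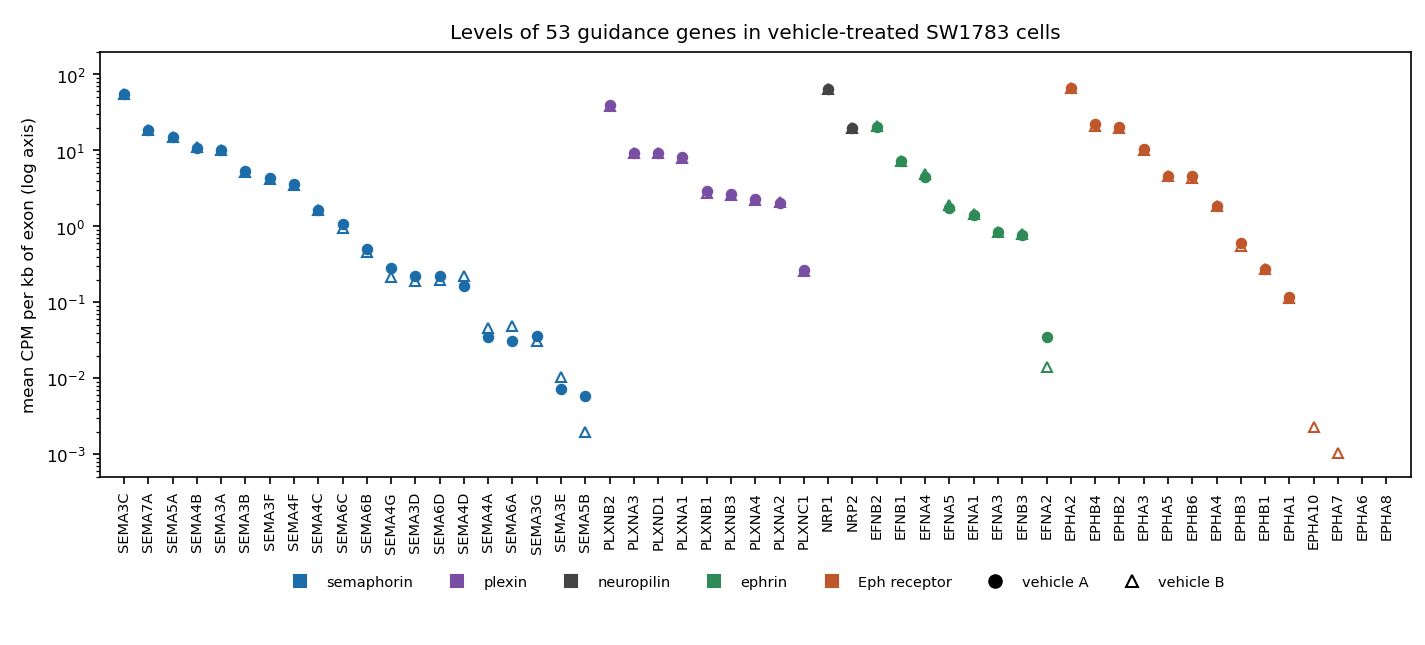
Mean level of the 53 guidance genes in vehicle-treated cells, in CPM per kb of exon on a log axis, 3 libraries per vehicle. Circles are vehicle A and triangles vehicle B, colours are the 5 families, and a group mean of 0 has no symbol. Levels span from 66.7 for EPHA2 in vehicle A down to 0, and the circles and triangles of genes above 1 CPM per kb nearly coincide.

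At the high doses more guidance genes fell than rose. Of the 9 plexins tested 5 fell and none rose with each extract, of the 7 ephrins 4 fell and 1 rose with each, and of the 10 Eph receptors 5 fell with WESF and 6 with EESF, and 1 rose with each. The semaphorins held 9 falls and 6 rises with WESF and 6 of each with EESF, and of the neuropilins 1 fell and 1 rose. With WESF, 24 of the 44 genes tested fell (54.5%) and 9 rose (20.5%) at an adjusted p under 0.05, where 34.6% of all 13129 genes tested fell and 34.3% rose. The counts of differentially expressed genes (DEGs), which also needed a fold change beyond 1.5, were 15 lower (34.1%) and 6 higher (13.6%), where 13% and 11.1% of all genes tested were lower and higher DEGs. With EESF, 22 of 44 fell (50%) and 9 rose (20.5%), against 28.7% and 29.3% of all 13092 genes tested, and the DEGs were 12 lower (27.3%) and 5 higher (11.4%), against 9.17% and 8.21%. The median log2 fold change of the guidance genes was -0.26 with WESF and -0.21 with EESF, beside 0.00 and 0.01 over all genes tested. The share of guidance genes that fell was above that of all genes by both counts, the share that rose at an adjusted p under 0.05 was below it, and the share of higher DEGs was near it. Their summed counts were 0.345%, 0.357% and 0.363% of all protein-coding counts in the libraries of vehicle A and 0.288%, 0.296% and 0.288% at the high dose of WESF. In vehicle B the shares were 0.336%, 0.350% and 0.355%, and at the high dose of EESF 0.282%, 0.283% and 0.276%. In RNA from whole cultures, fewer cells of a kind and less RNA per cell cannot be told apart, for these shares and for all that follows.

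**Figure D2:**
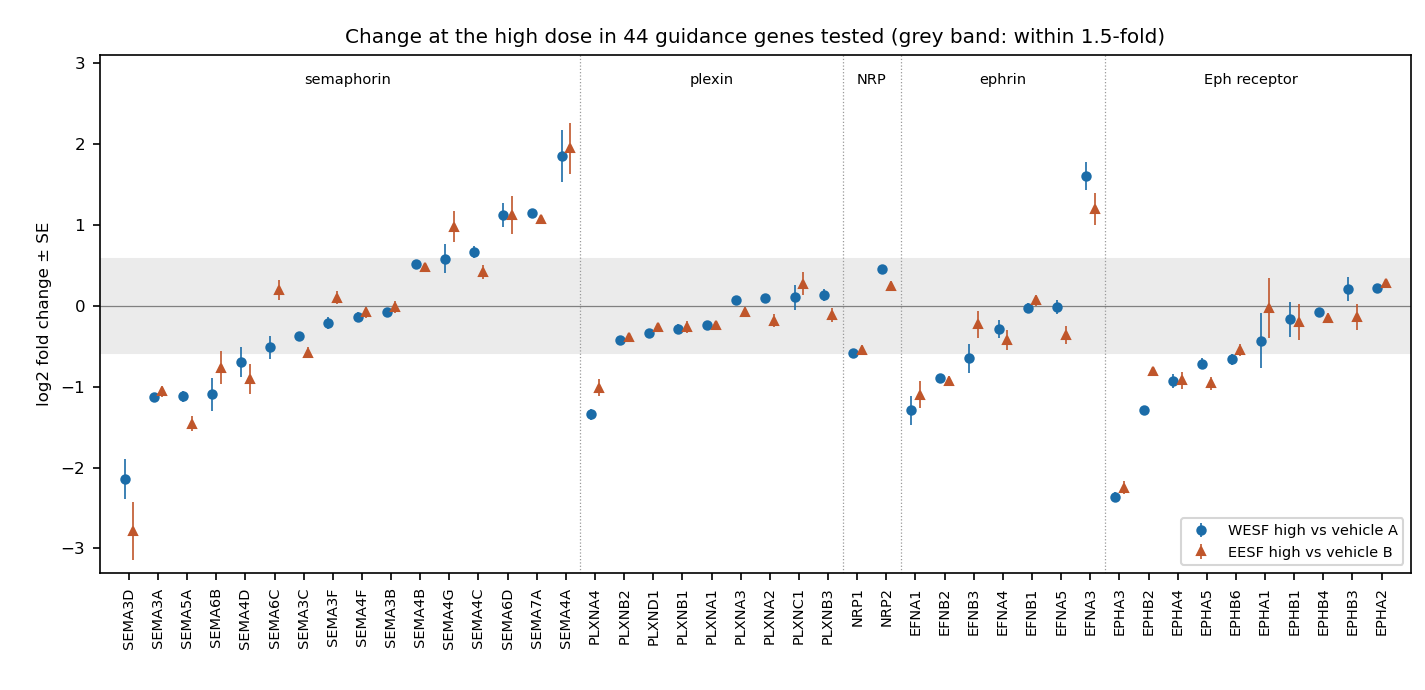
Log2 fold change with its standard error of the 44 guidance genes tested at the high dose of WESF (circles, against vehicle A) and EESF (triangles, against vehicle B), 3 libraries per group, grouped by family. The grey band marks changes within 1.5-fold. SEMA3D and EPHA3 lie lowest, and SEMA4A, EFNA3, SEMA7A and SEMA6D lie above the band with both extracts.

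Among the semaphorins, 5 of the 16 tested were lower DEGs with both extracts. SEMA3A, a secreted ligand that repels axons through NRP1 and plexin-A receptors, lies at chr7:83955777-84492724 (GRCh38). It read 89.8, 94.1 and 95.9 CPM in vehicle A and 42.7, 42 and 43.3 CPM at the high dose of WESF. In batch B it read 88.6, 96 and 96.4 CPM with vehicle and 48.2, 41.4 and 45.6 CPM at the high dose of EESF. Treated libraries lay far below the vehicle libraries in both batches, with log2 fold changes of -1.13 (SE 0.05, adjusted p = 3.56e-12) and -1.06 (SE 0.07, adjusted p = 1.11e-07). SEMA5A (chr5:9035033-9546075), a transmembrane semaphorin with thrombospondin repeats, gave 160.3, 193 and 196 CPM in vehicle A and 90.1, 84.5 and 78.6 CPM with WESF. Its values were 166, 191 and 201 CPM in vehicle B and 78.9, 66 and 59 CPM with EESF. The change was -1.12 with WESF and -1.45 with EESF on the log2 scale (SE 0.07 and 0.10), and replicate 1 was the lowest library of each vehicle.

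SEMA3D (chr7:84995553-85187056), a secreted class 3 ligand that neighbours SEMA3A, was scarce and had the largest fall of any guidance gene tested with EESF. Vehicle A libraries held 1.73, 1.81 and 2.06 CPM and those of the high dose of WESF 0.424, 0.345 and 0.482 CPM. Vehicle B libraries held 1.5, 1.43 and 1.79 CPM, and the high dose of EESF left 0.247, 0.352 and 0.0665 CPM, where 3 counts are worth between 0.0959 and 0.106 CPM. The log2 fold changes were -2.14 (SE 0.25) and -2.79 (SE 0.36), and the second rests on 2 to 11 counts per treated library. SEMA3D passed the filter on low counts through its vehicle groups. SEMA6B (chr19:4542593-4581776), a transmembrane ligand of plexin-A4, read 2.54, 2.06 and 2.53 CPM in vehicle A and 1.1, 1.38 and 0.876 CPM with WESF. In batch B the values were 1.8, 2.66 and 2.12 and 1.13, 1.44 and 1.3 CPM. SEMA6B thus fell in both batches, with log2 fold changes of -1.09 with WESF and -0.76 with EESF (adjusted p = 0.00616, the highest of the guidance DEGs at the high dose of EESF). SEMA4D (chr9:89360787-89498130), the transmembrane ligand of plexin-B1 also known as CD100, read 2.14, 2.5 and 2.26 CPM in vehicle A and 1.23, 1.43 and 1.62 CPM with WESF. It read 3.09, 3.12 and 3.29 CPM in vehicle B and 1.27, 1.76 and 2.03 CPM with EESF. The changes of -0.69 (SE 0.19) and -0.90 (SE 0.18) left no overlap of treated and vehicle libraries.

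The most abundant semaphorin, SEMA3C (chr7:80742538-80922359), a secreted ligand that signals through neuropilins and plexin-D1, fell by less than 1.5-fold. Its libraries read 310.4, 349 and 343 CPM in vehicle A, 259.6, 261 and 256 CPM with WESF, 310.0, 350.4 and 341 CPM in vehicle B and 243, 213 and 216 CPM with EESF. The log2 fold change was -0.37 with WESF (SE 0.05, adjusted p = 3.41e-06) and -0.58 with EESF (SE 0.06, adjusted p = 1.13e-05), the second just inside the limit of 0.585.

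Of the semaphorins, 5 were higher DEGs with WESF and 4 of them also with EESF. SEMA7A (chr15:74409289-74433958), which is held to the membrane by a lipid anchor and binds integrins and plexin-C1, was the only one of them above 10 CPM per kb. Vehicle A libraries read 74.9, 67 and 68.5 CPM and the high dose of WESF 154, 159.8 and 154 CPM. Vehicle B libraries read 71.5, 66 and 72.2 CPM and the high dose of EESF 141, 148 and 153 CPM. SEMA7A thus rose 2.22-fold with WESF (adjusted p = 3.31e-12) and 2.1-fold with EESF (adjusted p = 4.45e-08), with every treated library above every vehicle library. SEMA6D (chr15:47184101-47774228), a transmembrane ligand of plexin-A1, read 1.81, 1.95 and 1.91 CPM in vehicle A and 4.11, 4.34 and 3.94 CPM with WESF. In batch B it read 1.19, 1.28 and 2.51 CPM and 3.43, 3.16 and 4.15 CPM, with vehicle replicate 3 above the other two. The change was 1.12 with each extract on the log2 scale (SE 0.14 with WESF and 0.24 with EESF).

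SEMA4A (chr1:156147366-156177752), a transmembrane semaphorin known from immune cells, was near the detection limit with vehicle, at 0.258, 0.217 and 0.234 CPM in vehicle A and 0.412, 0.358 and 0.168 CPM in vehicle B. It read 0.889, 0.936 and 0.788 CPM with WESF and 1.02, 1.34 and 1.33 CPM with EESF. The fitted log2 fold changes were 1.86 (SE 0.32) and 1.95 (SE 0.32), for a gene that entered the test only because its treated groups were high. SEMA4C (chr2:96859718-96870757), a transmembrane ligand of plexin-B2, read 11.1, 9.4 and 10.9 CPM in vehicle A and 16.6, 16.1 and 17.1 CPM with WESF. With vehicle B it read 10.6, 11 and 9.77 CPM and with EESF 13.1, 15.1 and 13.9 CPM. SEMA4C was a DEG with WESF (log2 fold change 0.67) and rose by less than 1.5-fold with EESF (0.42, adjusted p = 0.0011), and the difference between the extracts did not pass the test (adjusted p = 0.13). SEMA4G (chr10:100969504-100985871) read 1.33, 1.52 and 1.71 CPM in vehicle A, 2.16, 2.46 and 2.23 CPM with WESF, 1.39, 0.972 and 1.12 CPM in vehicle B and 2.08, 2.4 and 2.39 CPM with EESF. Its changes were 0.59 (adjusted p = 0.00869, the highest of the guidance DEGs with WESF) and 0.98. The rise with WESF sat at the 1.5-fold limit and was a DEG in 8 of 14 alternatives, and not without vehicle A replicate 1 (0.49) or high-dose replicate 2 (0.53). The gene overlaps MRPL43 on the other strand, which averaged 1130 counts per library against 44.9 for SEMA4G, and the strand setting of the counting was not given in the sources used here, so its counts are uncertain.

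The other semaphorins tested moved by less than 1.5-fold. SEMA4B rose with both extracts (0.52 and 0.48 on the log2 scale), and SEMA3F, SEMA4F and SEMA6C fell with WESF (-0.21, -0.14 and -0.51) but did not pass the test with EESF. SEMA3B passed in neither comparison (-0.08 and -0.01).

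Plexins, the receptors of the semaphorins, held 1 DEG among 9 genes. PLXNA4 (chr7:132123340-132648688), a receptor of class 3 semaphorins with neuropilins and of class 6 semaphorins without them, read 35.2, 37.8 and 41.3 CPM in vehicle A and 15, 14.8 and 15.4 CPM at the high dose of WESF. In batch B the libraries read 32.2, 38.6 and 39.5 CPM and 20.4, 19 and 15.3 CPM. PLXNA4 was 2.53-fold lower with WESF (adjusted p = 3.39e-11) and 2.02-fold lower with EESF (adjusted p = 5.58e-06), with no overlap in either batch. Of the other plexins, PLXNA1, PLXNB1, PLXNB2 and PLXND1 fell with both extracts, with log2 fold changes between -0.43 and -0.24. PLXNB2 (chr22:50274979-50307646), the most abundant of them, went from 287, 291 and 288 CPM to 210.5, 221 and 214 CPM with WESF and from 279.7, 275 and 274 CPM to 198, 223 and 213 CPM with EESF. PLXNA2, PLXNA3, PLXNB3 and PLXNC1 passed the test at neither high dose, with changes from -0.19 to 0.28. PLXNC1 averaged 67.1 counts per library and overlaps CEP83 (313 counts) on the other strand, so its counts are uncertain.

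The 2 neuropilins, co-receptors that bind class 3 semaphorins and VEGF, moved in opposite directions. NRP1 (chr10:33177492-33336262) gave 691, 745 and 769 CPM in vehicle A and 491, 492 and 487 CPM with WESF. It gave 705, 747 and 773 CPM in vehicle B and 536, 497 and 494 CPM with EESF. NRP2 (chr2:205681990-205798133) gave 257, 273 and 287 CPM in vehicle A and 383, 371 and 370.0 CPM with WESF, and 259, 276 and 278 CPM in vehicle B and 344, 324 and 297 CPM with EESF. Every treated library was thus below every vehicle library for NRP1 and above it for NRP2. The log2 fold changes of NRP1 were -0.59 and -0.54 (SE 0.05 and 0.05), and those of NRP2 were 0.46 and 0.25 (SE 0.05 and 0.06). NRP1 with WESF sat at the 1.5-fold limit and was a DEG in 3 of the 6 fits that left out 1 library (not without vehicle A replicate 2 or 3 or high-dose replicate 3), with its adjusted p under 0.05 in all 6. Per kb of exon, NRP1 stood at 63.8 CPM against 19.6 CPM for NRP2 in vehicle A, and at 42.5 against 27 CPM at the high dose of WESF. With EESF the pair stood at 44.2 and 23.1 CPM per kb, so NRP1 stayed the higher of the 2.

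Among the ephrins, EFNA1 fell and EFNA3, its neighbour on the chromosome, rose. EFNA4, EFNA3 and EFNA1 lie in this order on the plus strand of chromosome 1, with a gap of 9.28 kb between the first pair and 40.3 kb between EFNA3 (chr1:155078837-155087538) and EFNA1 (chr1:155127876-155134899). All 3 encode lipid-anchored ephrin-A ligands, and ephrin-A1 is the best-known ligand of EPHA2. EFNA1 read 3.46, 2.86 and 2.84 CPM in vehicle A and 1.23, 1.38 and 1.14 CPM with WESF, and 3.2, 3.32 and 3.07 CPM in vehicle B and 1.31, 1.69 and 1.46 CPM with EESF. EFNA3 read 1.88, 1.41 and 1.71 CPM in vehicle A and 5.42, 3.99 and 5.74 CPM with WESF, and 1.86, 1.79 and 1.23 CPM in vehicle B and 3.22, 4.5 and 3.52 CPM with EESF. The treated libraries did not overlap the vehicle libraries for either gene, and the order of the genes turned. EFNA1 was 2.45-fold lower with WESF and 2.14-fold lower with EESF (adjusted p = 7.15e-06 and 0.000114), and EFNA3 was 3.04-fold and 2.3-fold higher (adjusted p = 3.05e-07 and 0.000227). Per kb of exon, EFNA1 stood at 1.41 CPM and EFNA3 at 0.858 CPM in vehicle A, and at 0.577 and 2.6 CPM at the high dose of WESF. EFNA4 fell slightly (-0.28 and -0.42 on the log2 scale, adjusted p = 0.0314 and 0.0122). A read-through gene that joins EFNA4 and EFNA3 averaged 0.25 counts per library, against 64.2 for EFNA3.

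The sequences of the 250 bases before the RefSeq starts (GRCh38.p14) of EFNA3, EFNA1 and EPHA3 are shown because the first pair are neighbours that moved in opposite directions and the last is the Eph receptor that fell most. Each is on the plus strand, written from 5′ to 3′, with capitals where the 6 bases of a GC box, GGGCGG or its reverse complement, occur. The windows are chr1:155078587-155078836, chr1:155127626-155127875 and chr3:89107371-89107620.
EFNA3: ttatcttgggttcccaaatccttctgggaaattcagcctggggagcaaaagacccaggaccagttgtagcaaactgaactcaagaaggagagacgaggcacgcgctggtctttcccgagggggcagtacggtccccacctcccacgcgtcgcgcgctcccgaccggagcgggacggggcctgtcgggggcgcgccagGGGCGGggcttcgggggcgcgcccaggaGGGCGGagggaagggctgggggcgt
EFNA1: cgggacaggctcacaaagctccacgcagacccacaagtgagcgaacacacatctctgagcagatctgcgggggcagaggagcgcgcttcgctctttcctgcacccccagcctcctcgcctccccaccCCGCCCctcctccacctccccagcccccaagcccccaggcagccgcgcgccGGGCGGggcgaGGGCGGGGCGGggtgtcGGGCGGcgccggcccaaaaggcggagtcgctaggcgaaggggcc
EPHA3: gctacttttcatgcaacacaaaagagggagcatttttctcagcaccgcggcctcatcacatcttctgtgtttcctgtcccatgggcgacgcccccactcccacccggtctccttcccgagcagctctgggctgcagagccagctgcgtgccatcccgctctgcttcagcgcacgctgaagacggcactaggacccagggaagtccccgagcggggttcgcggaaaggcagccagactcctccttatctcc
The windows of EFNA3 and EFNA1, with 67.6% and 73.2% G and C, held 2 and 5 copies of the GC box, some of them overlapping, and that of EPHA3, with 61.2%, held 0. Of all 35116 promoter windows of this length in the table, 42.6% held at least 1 copy on either strand, as did 54 of the 74 windows of the 47 guidance genes that the table lists (73.0%).

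Of the ephrin-B ligands, EFNB2 and EFNB3 fell and EFNB1 did not pass the test. EFNB2 (chr13:106489745-106535662), the transmembrane ligand of EPHB4 and other EphB receptors, read 97.3, 106 and 102 CPM in vehicle A and 52.1, 55.9 and 56.2 CPM with WESF. In batch B it read 100.3, 107 and 104 CPM and 56.4, 54.9 and 52.3 CPM. These values put EFNB2 1.86-fold and 1.9-fold lower (adjusted p = 9.64e-11 and 7.55e-08), with a standard error of 0.05 on the log2 scale in each. EFNB3 (chr17:7705202-7711372) read 2.73, 2.42 and 2.34 CPM in vehicle A and 1.36, 1.68 and 1.75 CPM with WESF, a fall of -0.65 (adjusted p = 0.00385). This call was lost without WESF high-dose replicate 1 (-0.55) and in libraries thinned to equal depth (-0.43, adjusted p = 0.0808). With 2.53, 2.51 and 2.57 CPM in vehicle B and 1.87, 2.04 and 2.56 CPM with EESF, its change of -0.23 in batch B did not pass the test (adjusted p = 0.269). EFNB1 (chrX:68829021-68842160) read 24.6, 24.6 and 23.3 CPM in vehicle A and 24.5, 24.4 and 22.6 CPM with WESF. It read 23.5, 23.3 and 24.8 CPM in vehicle B and 25.4, 26 and 23.7 CPM with EESF. Treated and vehicle libraries of EFNB1 overlapped in both batches, with log2 fold changes of -0.02 and 0.07 (SE 0.06 and 0.07). EFNA5 fell with EESF (-0.36, adjusted p = 0.0135) and not with WESF (-0.01, adjusted p = 0.895), and this difference between the extracts did not pass the test (adjusted p = 0.0942).

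Eph receptors that changed by more than 1.5-fold all fell. EPHA3 (chr3:89107621-89482134), a receptor of ephrin-A ligands that has been studied in glioma, had the largest fall of the guidance genes with WESF. Its vehicle A libraries read 63.4, 70.6 and 71.6 CPM and those of the high dose of WESF 13.4, 13.3 and 13.3 CPM. In batch B it read 64.8, 69.3 and 66.5 CPM with vehicle and 16.2, 12.6 and 13.5 CPM with EESF. EPHA3 was 5.14-fold lower with WESF (adjusted p = 1.79e-14) and 4.76-fold lower with EESF (adjusted p = 2.72e-09), and the high-dose groups of the 2 extracts overlapped each other. EPHA4 (chr2:221418027-221574202), which binds both ephrin-A and ephrin-B ligands, read 13.5, 15.2 and 13.9 CPM in vehicle A and 7.12, 7.34 and 7.97 CPM with WESF. It read 13, 13.2 and 15.5 CPM in vehicle B and 8.09, 7.44 and 6.45 CPM with EESF. Its log2 fold change was -0.92 with each extract (SE 0.09 and 0.11). EPHA5 (chr4:65319563-65670495), another ephrin-A receptor, read 41.1, 48 and 47.7 CPM in vehicle A and 28.1, 28.8 and 26.7 CPM with WESF. Its values in batch B were 40.1, 48.6 and 46.7 CPM and 25.3, 22.6 and 21.8 CPM. The falls of -0.71 and -0.96 left no overlap with the vehicles, in which replicate 1 was again the lowest library. An antisense transcript, EPHA5-AS1, averaged 57.8 counts per library beside 926.7 for EPHA5.

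EPHB2 (chr1:22710839-22921500), a receptor of ephrin-B ligands, read 255, 249 and 259.6 CPM in vehicle A and 108, 106 and 98.6 CPM with WESF. It read 248, 250.2 and 254 CPM in vehicle B and 139, 148 and 142 CPM with EESF. The fall was 2.45-fold with WESF (adjusted p = 4.28e-13) and 1.75-fold with EESF (adjusted p = 9.85e-08), and the libraries of the 2 high doses did not overlap each other. EPHB6 (chr7:142855061-142871094), whose kinase domain is inactive, read 26.6, 22.9 and 24.3 CPM in vehicle A and 14.9, 16.8 and 15.2 CPM with WESF, and 24.8, 23.4 and 21.4 CPM in vehicle B and 15.4, 16.4 and 16 CPM with EESF. EPHB6 was a DEG with WESF (-0.66) and fell by less than 1.5-fold with EESF (-0.55, adjusted p = 3.94e-05), and the difference between the extracts did not pass the test (adjusted p = 0.42). EPHA2 (chr1:16124337-16156069), the most abundant receptor, was the 1 Eph gene that rose. It read 278, 271 and 279 CPM in vehicle A, 326, 323 and 314 CPM with WESF, 273, 267 and 273 CPM in vehicle B and 312, 336 and 336 CPM with EESF, for log2 fold changes of 0.21 and 0.28 (adjusted p = 0.000188 and 0.000558). EPHB4, the receptor of ephrin-B2, fell slightly with EESF (-0.15, adjusted p = 0.0455) and did not pass the test with WESF (-0.08). EPHB4 averaged 3289 counts per library and overlaps SLC12A9 (1342 counts) on the other strand, so the counts of EPHB4 are uncertain. EPHA1, EPHB1 and EPHB3 passed the test with neither extract, with changes from -0.43 to 0.21. The lowest of these was that of EPHA1, which averaged 12.9 counts per library and overlaps ZYX (11770 counts) on the other strand, so its counts are uncertain too.

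Levels of some family members drew apart and others came closer. EPHB2 and EPHB4 stood at 20.3 and 22.1 CPM per kb in vehicle A and at 8.3 and 21 CPM per kb at the high dose of WESF. With EESF they stood at 11.4 and 19 CPM per kb, so that EPHB2 was the lower of the pair in all 3 groups. SEMA3C was about 3 times the level of SEMA7A per kb in vehicle A (54.8 and 18.5 CPM per kb), and the pair were nearly level at the high doses, at 42.4 and 41 CPM per kb with WESF and 36.7 and 38.7 with EESF. EPHA2 remained the most abundant of the 53 genes, at 77.4 and 79.3 CPM per kb.

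**Figure D3:**
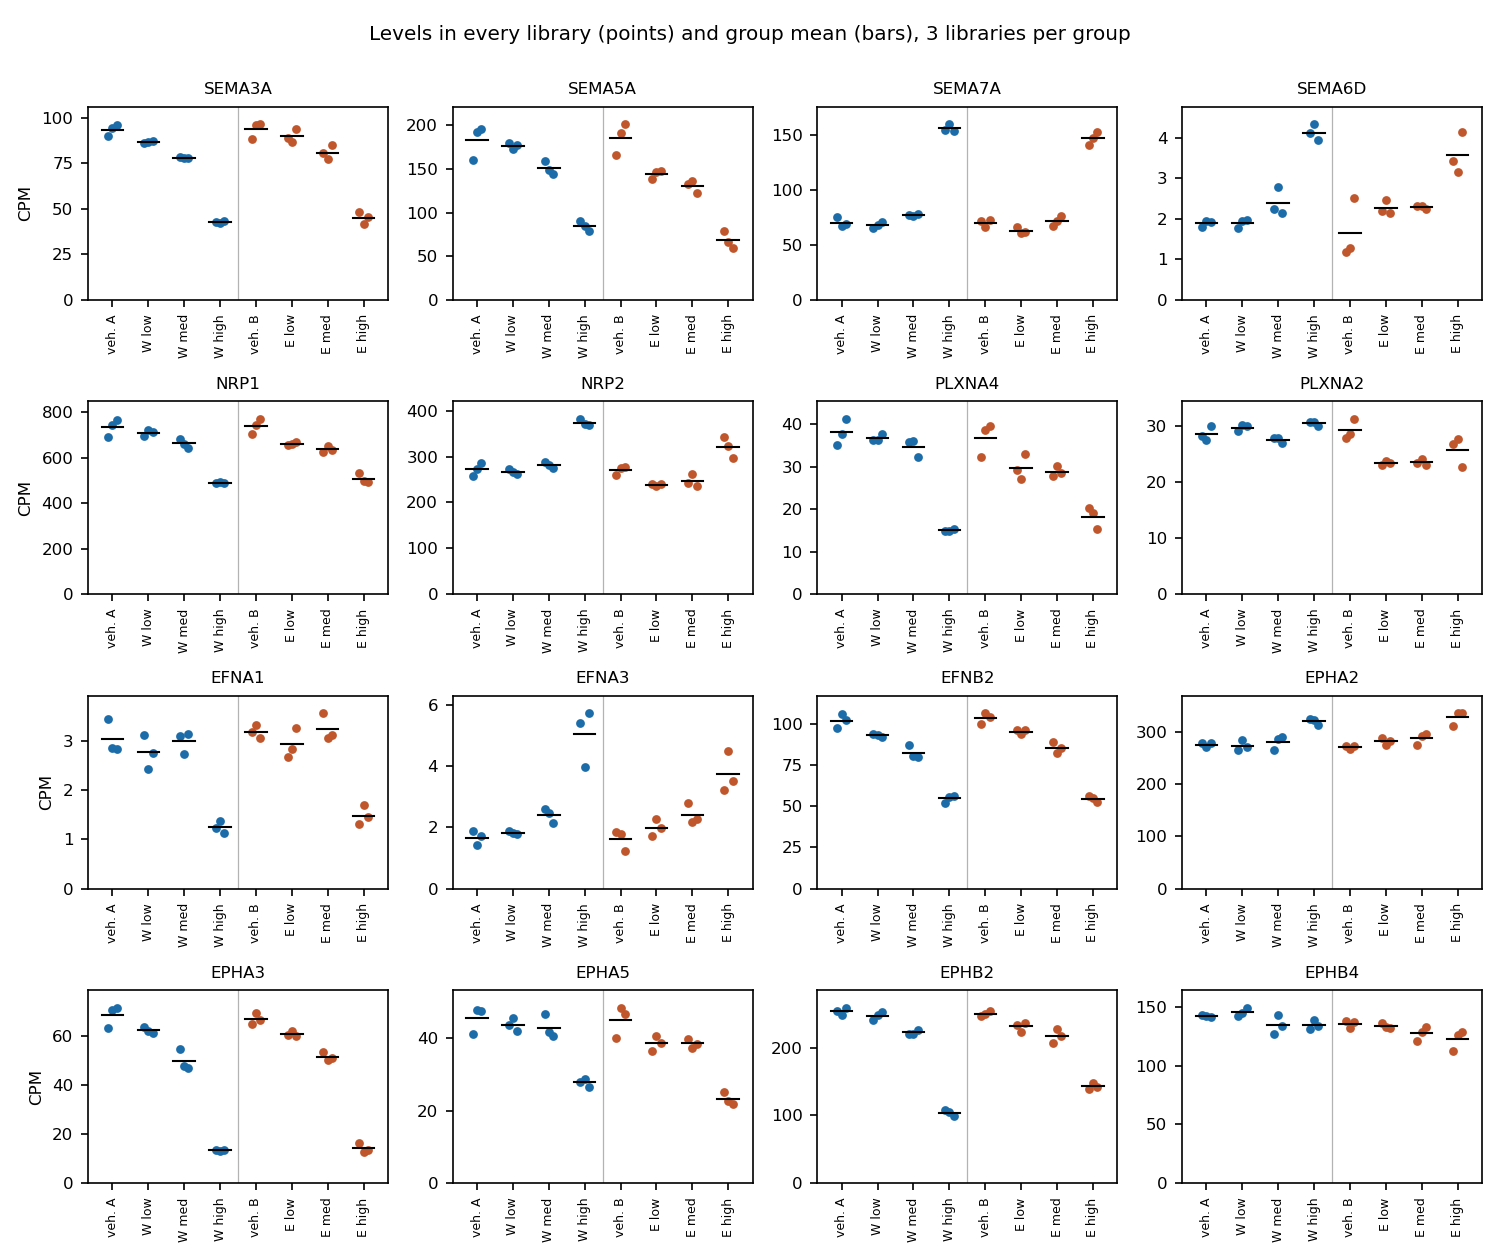
CPM in each of the 24 libraries for 16 guidance genes, from vehicle A through the WESF doses (blue) and from vehicle B through the EESF doses (orange). Points are libraries, bars are the means of 3, and each vertical axis starts at 0. For EPHA3 with WESF most of the change lies between the medium and the high dose, from 46.9 to 54.9 CPM to 13.3 to 13.4 CPM.

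Below the high dose, more guidance genes passed the test with EESF than with WESF, and these counts were not tested against each other, since doses and batches differ. At the medium dose of WESF, SEMA3A, SEMA5A, EFNB2, EPHA3 and EPHB2 fell and SEMA4B rose, 6 of 43 genes tested, where 2.2% of all 13112 genes fell and 1.89% rose. EPHA3 had the largest of these falls, -0.46 on the log2 scale (SE 0.06, adjusted p = 0.00236), with libraries at 54.9, 47.7 and 46.9 CPM. None of the 6 was a DEG, beside 0.275% of all genes. Only 3 genes passed at this dose with the replicate number as a block. The 6 depended on single libraries, since only EPHA3 passed in each of the 6 fits that left out a library, and the count was 1 without vehicle A replicate 2 or without replicate 3 of the medium dose and 3 without replicate 2 of the medium dose. At the low dose of WESF none of the 44 guidance genes passed the test, as was so of all 13131 genes (0% by either rule). With edgeR 4 of the 44 had an unadjusted p under 0.05, beside 470 of all 13131 genes. DESeq2 called 0 of the 44 by its adjusted p.

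At the medium dose of EESF 13 of 43 genes fell and none rose, where 8.48% of all 12978 genes fell and 6.9% rose. They were the semaphorins SEMA3A, SEMA3C, SEMA4D and SEMA5A, the plexins PLXNA1, PLXNA2, PLXNA4 and PLXND1, the co-receptor NRP1, the ephrin EFNB2 and the receptors EPHA3, EPHA5 and EPHB2. Their changes ran from -0.52 for SEMA4D to -0.15 for PLXND1, so none was a DEG, beside 0.755% of all genes. SEMA5A read 133, 136 and 122 CPM at this dose against 166, 191 and 201 CPM in vehicle B, without overlap, and its fall of -0.51 had the lowest adjusted p of the 13, 0.00028. EFNB2, EPHA3, PLXNA1, PLXNA2, PLXNA4 and SEMA5A passed in all 6 fits that left out a library, and the count was 6 without vehicle B replicate 2.

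At the low dose of EESF 9 of 44 genes fell and none rose, where 6.24% of all 12892 genes fell and 3.11% rose. These were SEMA3C, SEMA3D, SEMA5A, PLXNA1, PLXNA2, PLXNA4, PLXND1, NRP1 and NRP2. Changes of EFNB2 (-0.13), EPHA3 (-0.15), EPHA5 (-0.23), EPHB2 (-0.12), SEMA7A (-0.16) and SEMA4G (0.70) just missed the limit, with adjusted p between 0.0526 and 0.0743. SEMA3D was the 1 DEG, beside 0.271% of all genes, at 0.812, 0.991 and 0.647 CPM against 1.5, 1.43 and 1.79 CPM in vehicle B (-0.92, SE 0.24, adjusted p = 0.0279). It was called in 1 of the 6 fits that left out a library, the one without vehicle B replicate 1, and DESeq2 gave it no adjusted p. Its medium-dose libraries read 1.75, 1.17 and 1.16 CPM and did not differ from the vehicle by the test (adjusted p = 0.629). Only SEMA5A (-0.38) and PLXNA2 (-0.33) of the 9 passed in each of the 6 fits that left out a library. The count was 14 without vehicle B replicate 1, 2 without vehicle B replicate 2, 4 without vehicle B replicate 3, 2 without replicate 1 or 2 of the low dose and 3 without its replicate 3. Fewer than 9 genes passed with all groups in 1 fit, as given below.

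The receptors PLXNA2 and NRP2 did not follow the order of the doses in batch B. PLXNA2, a plexin-A receptor, read 27.9, 28.5 and 31.3 CPM in vehicle B, 23, 23.8 and 23.4 CPM at the low, 23.4, 24.1 and 22.9 CPM at the medium and 26.7, 27.6 and 22.7 CPM at the high dose. It was lower at the low (-0.33, adjusted p = 0.00634) and medium dose (-0.31, adjusted p = 0.0041), while the change of -0.19 at the high dose did not pass (adjusted p = 0.0687). NRP2 read 239.6, 236 and 241 CPM at the low, 242, 263 and 236 CPM at the medium and 344, 324 and 297 CPM at the high dose, so that it fell at the low dose (-0.19, adjusted p = 0.014) and rose at the high dose (0.25, adjusted p = 0.00386). The comparisons within a batch share their vehicle libraries. Group means fell at each step from vehicle to high dose for 12 of the 44 guidance genes with WESF (27.3%, beside 14.2% of all genes tested) and for 18 with EESF (40.9%, beside 15.0%). They rose at each step for 4 with WESF (9.09%, beside 13.7%) and for 5 with EESF (11.4%, beside 16.9%). SEMA4B, SEMA6D and EFNA3 were among the latter with both extracts, as was SEMA4A, which had only 3 to 14 counts per library below the high doses and was not tested there.

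**Figure D4:**
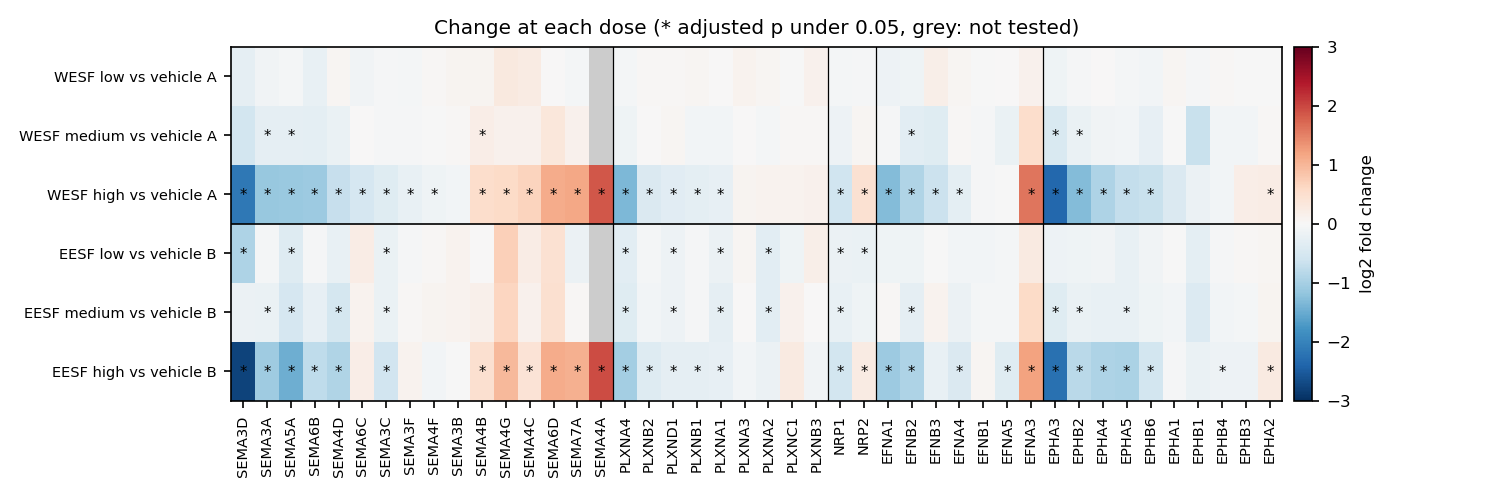
Log2 fold change of the 44 guidance genes at each dose against the vehicle of its batch (grey where not tested), 3 libraries per group, red higher and blue lower, with an asterisk at an adjusted p under 0.05. Vertical lines part the 5 families in the order semaphorins, plexins, neuropilins, ephrins and Eph receptors. The low dose of WESF has no asterisk, the low dose of EESF has 9, and the high doses have 33 and 31.

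The responses to the high doses were compared directly, as the difference of the log2 fold changes in a fit of 12 libraries. The extract, its dose and its batch cannot be told apart in this difference. Of the 44 guidance genes 4 passed at an adjusted p under 0.05, where 26% of all 13376 genes did, and 1 was also beyond 1.5-fold, where 3.88% of all genes were. EPHB2 fell less with EESF than with WESF, by 0.49 on the log2 scale (SE 0.06, adjusted p = 9.25e-05), and this passed in all 12 fits that left out a library. SEMA6C, a transmembrane semaphorin, read 6.75, 5.64 and 6.39 CPM in vehicle A and 3.35, 4.68 and 5.17 CPM with WESF. In batch B it read 6.44, 4.76 and 5.47 CPM and 6.33, 5.94 and 6.84 CPM with EESF. SEMA6C was thus lower in all 3 treated libraries of batch A, with vehicle and treated values overlapping in batch B, and the difference was 0.71 (SE 0.20, adjusted p = 0.0159). It was no longer beyond both limits without WESF high-dose replicate 1 or without vehicle B replicate 2.

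SEMA3F, a secreted ligand that signals mainly through NRP2, differed by 0.32 (adjusted p = 0.0424) and PLXNA2 by -0.28 (adjusted p = 0.0479), and each passed in 4 of the 12 fits that left out a library. The number of genes that passed was 1 without vehicle B replicate 2, 2 without vehicle A replicate 2 or replicate 1 or 3 of the high dose of WESF, 7 without vehicle B replicate 1 and 8 without replicate 1 of the high dose of EESF. For the other 40 genes the difference ran from -0.64 for SEMA3D (SE 0.48) to 0.42 for EFNB3 (SE 0.23) and did not pass the test. EPHA3 differed by 0.12 (SE 0.11), EFNB2 by -0.03 (SE 0.07) and SEMA7A by -0.08 (SE 0.07), all small beside the changes themselves. Of the 21 genes that were DEGs with either extract, 17 were DEGs with both in the same direction and 4, SEMA4C, NRP1, EFNB3 and EPHB6, with WESF alone. Of these 4 none passed the test of the difference. Over all 13002 genes tested in both comparisons, 3668 were DEGs with either extract and 1660 with both.

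Between vehicle B and vehicle A none of 43 guidance genes passed the test, nor did any of 13001 genes (0% by either rule). The fit ignored replicate numbers, although each vehicle A library was closest to the vehicle B library of its own number, as given below. With edgeR 1 of the 43 had an unadjusted p under 0.05, beside 371 of all 13001 genes. That gene was SEMA4D, with a log2 difference of 0.46, and DESeq2 called 0 of the 43. Differences ran from -0.39 for SEMA4G to 0.46 for SEMA4D.

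Other genes of the same pathways were taken from 2 lists of proteins that act with these receptors, beside a list of other guidance families. Of 30 genes that act with plexins and neuropilins, 28 were tested with WESF and 27 with EESF, and 14 fell (50%) and 7 rose (25%) with WESF and 12 fell (44.4%) and 5 rose (18.5%) with EESF at an adjusted p under 0.05. The shares that fell were above those of all genes tested, 34.6% and 28.7%, and most of these changes were within 1.5-fold. The DEGs were 1 higher (3.57%) and 2 lower (7.14%) with WESF, beside 11.1% and 13% of all genes, and 1 of each (3.7%) with EESF, beside 8.21% and 9.17%. DPYSL2, the collapsin response mediator CRMP2 that acts below SEMA3A, went from 156 ± 8.68 CPM (SD, n = 3) to 98.4 ± 1.68 CPM with WESF, a log2 fold change of -0.66, and fell as well with EESF (-0.87). RND1, a plexin-binding GTPase, read 0.246 ± 0.105 CPM in vehicle A and 0.777 ± 0.244 CPM with WESF (1.60), entered the test only because its treated group was high, and was not tested with EESF. RRAS, a substrate of the plexin GAP domain, was a higher DEG with EESF (0.61). It rose by less than 1.5-fold with WESF (0.35, adjusted p = 0.000198).

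Of 30 genes that act with ephrins and Eph receptors, 28 were tested, and 13 rose (46.4%) and 8 fell (28.6%) with WESF at an adjusted p under 0.05, beside 34.3% and 34.6% of all genes, and 5 rose (17.9%) and 9 fell (32.1%) with EESF, beside 29.3% and 28.7%. By the rule for DEGs 1 was higher (3.57%) with each extract, 4 were lower DEGs with WESF (14.3%, near the 13% of all genes) and 6 with EESF (21.4%, beside 9.17%). VAV3, an exchange factor in Eph receptor endocytosis, went from 13.1 ± 1.17 CPM (SD, n = 3) to 0.987 ± 0.0439 CPM with WESF and from 13.6 ± 0.333 CPM to 2 ± 0.267 CPM with EESF. Its falls of -3.72 (SE 0.14) and -2.76 (SE 0.11) were the largest of the 3 lists. RASA1, a Ras GTPase-activating protein that binds Eph receptors, rose from 87.9 ± 3.33 CPM to 259 ± 0.846 CPM with WESF (log2 fold change 1.56, adjusted p = 3.4e-14) and by 1.02 with EESF. Among the DEGs of the list, the next falls in size were those of GRIP1 (-1.50) and RIN1 (-0.90) with WESF and of TIAM1 (-0.68) and PTPRO (-0.68) with EESF, where the change of GRIP1 (-0.81) did not pass the test (adjusted p = 0.0798). With WESF, GRIP1 passed the filter through its vehicle group alone.

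Of 29 genes of the other guidance families (Slits and Robos, netrins with their receptors, RGM and FLRT proteins), 20 were tested, of which 3 were higher (15%) and 8 lower DEGs (40%) with WESF, beside 11.1% and 13% of all genes, and 5 higher (25%) and 8 lower (40%) with EESF, beside 8.21% and 9.17%. FLRT3 and FLRT2, adhesion proteins that bind UNC5 receptors, fell with WESF (-2.42 and -1.80) and with EESF (-1.93 and -1.66). UNC5C, a netrin receptor, fell with both extracts as well (-2.07 and -1.24). RGMB, a repulsive guidance molecule and BMP co-receptor, rose from 52.4 ± 2.16 CPM (SD, n = 3) to 131 ± 2.7 CPM with WESF (1.32) and by 1.00 with EESF. FLRT1 rose with both (1.53 and 1.29), SRGAP1 was the third of the higher DEGs with WESF (1.14), and ROBO4, at 0.409 ± 0.132 CPM in vehicle B and 1.02 ± 0.188 CPM with EESF, had a fitted change of 1.33. The filter asks for 3 libraries over a low limit (0.403 CPM with WESF and 0.411 CPM with EESF), which FLRT1 with both extracts and ROBO4 with EESF met in the treated group alone and FLRT3 with both in the vehicle group alone, so each entered the test only because 1 group was high.

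The cells' markers were read beside these genes. Of 10 astrocyte and glioma markers, GFAP, S100B, AQP4 and ALDH1L1 had at most 10 counts in any library, VIM was the most abundant (4821 CPM in vehicle A), and 5 genes were tested. Of these, SLC1A3, NES, CD44 and SOX9 were lower DEGs with WESF and SLC1A3 and SOX9 with EESF. The summed level of the list was 7699, 7796 and 7842 CPM in vehicle A, 6728, 6486 and 6535 CPM with WESF, 7836, 7981 and 8011 CPM in vehicle B and 7270.0, 7516 and 7480.0 CPM with EESF. Of 7 neuron markers, SNAP25 and SYT1 fell with both extracts and RBFOX3 went from 0.112 ± 0.0378 CPM (SD, n = 3) to 0.709 ± 0.163 CPM with WESF, where it entered the test only because the treated group was high, and from 0.138 ± 0.0757 CPM to 0.563 ± 0.182 CPM with EESF, where it was not tested. The list summed to 53.3, 55.4 and 57.1 CPM in vehicle A, 24.9, 26.4 and 23.8 CPM with WESF, 57.8, 57.1 and 59.2 CPM in vehicle B and 30.7, 26.2 and 27.3 CPM with EESF. SNAP25 had the highest CPM of the list in these groups except at the high dose of WESF. There SYT1 was higher, at 13.5 CPM against 8.83 CPM. The summed neuron list was thus about 2 times lower at both high doses.

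Among 5 microglia and leukocyte markers, PTPRC and CSF1R fell with both extracts, CD68, the most abundant, rose with both (0.29 and 0.43 on the log2 scale), and the sum was 189.9, 201 and 194 CPM in vehicle A and 239.7, 208 and 229.8 CPM with WESF, and 202, 226 and 214 CPM in vehicle B and 275, 269 and 277 CPM with EESF. AIF1 had at most 1 count. Of 4 epithelial markers, KRT18, the most abundant, fell with both, KRT8 rose with both (0.20 and 0.31), and the sum went from 150.1, 135 and 133 CPM to 62.1, 66.7 and 63.2 CPM with WESF and from 136, 133 and 126 CPM to 80.5, 101 and 96.6 CPM with EESF, with EPCAM and CDH1 at no more than 5 counts. Of 4 fibroblast markers, PDGFRB was a lower DEG with both and THY1 with WESF, THY1 with EESF and COL1A1, the most abundant, with both fell by less than 1.5-fold, COL1A2 rose with WESF (0.22), and the sum was 6307, 6247 and 6032 CPM in vehicle A, 5605, 5309 and 5391 CPM with WESF, 6309, 6235 and 5989 CPM in vehicle B and 5649, 5756 and 5895 CPM with EESF. Of 5 oligodendrocyte markers, MOG and SOX10 had 0 counts in every library and MBP, the most abundant, was a higher DEG with WESF, with sums of 6.75, 7.67 and 6.74 CPM in vehicle A, 14.1, 13.1 and 11.4 CPM with WESF, 6.55, 7.32 and 6.92 CPM in vehicle B and 9.65, 10.2 and 9.67 CPM with EESF. Of 5 endothelial markers, TEK was the most abundant, CDH5 had at most 1 count, PECAM1 was a lower DEG with WESF, and the sums were 2.76, 2.53 and 2.45 CPM in vehicle A, 1.82, 1.97 and 2.76 CPM with WESF, 3.2, 2.25 and 1.9 CPM in vehicle B and 2.83, 2.04 and 2.62 CPM with EESF. PECAM1 passed the filter with WESF through its vehicle group alone. The part of these marker changes in the results on guidance genes was not tested.

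The guidance genes that fell spanned more of the chromosome than those that rose. The median span was 158.8 kb for the 15 lower DEGs with WESF and 20.5 kb for the 6 higher ones, beside 40.4 kb and 25.6 kb for all lower and higher DEGs. With EESF the medians were 201.1 kb for the 12 lower and 24.7 kb for the 5 higher guidance genes, beside 71.5 kb and 17.8 kb. SEMA6D, at 590.1 kb, was the longest of the higher ones, longer than SEMA3A at 536.9 kb, the longest of the lower ones. The part of gene length in the changes was not tested.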

How the data were processed

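RNA-seq libraries of SW1783 cells were prepared with a directional kit and sequenced as paired reads of 100 bases. Per the submitters' processing notes, the authors used FastQC 0.11.9, Trim Galore 0.6.6, STAR 2.7.9a and RSEM 1.3.3 with GRCh38. They deposited expected counts per gene, without normalization, in which RSEM divides reads that match several genes. Expected counts were rounded, and symbols, positions and exon lengths were taken from GENCODE release 44. Protein-coding genes kept by edgeR's filterByExpr were tested by the edgeR 4.0.16 quasi-likelihood test (R 4.3.3, TMM normalization, 2-sided) on the 6 libraries of each comparison, with Benjamini-Hochberg adjustment over all genes tested. DEGs were those past both of the study's limits, 0.05 for the adjusted p and 1.5 for the fold change (0.585 as a log2 value). DESeq2 1.42.0, the study's tool, was an alternative. Counts of replicates varied beyond sampling noise (chi-square per degree of freedom 2.02 to 15.5), so none were merged. The scripts were tested on simulated data.

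Each gene called at a high dose is given with every library of the vehicles and the high doses. Of the genes not called, the most abundant of each family is given, and each of the 3 lists is described by its counts and, among its DEGs, up to 3 of the largest rises and falls. The genes, lists and markers were chosen with earlier results of these data known. Promoter sequences are from RefSeq. A lower DEG of the plexin list with WESF is not reported here.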

Additional observations from a re-analysis of the deposited data

Results flagged for a closer look

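The differences between the responses to the high doses of EESF and WESF that passed the test at an adjusted p under 0.05 were those of EPHB2 (0.49 on the log2 scale), SEMA6C (0.71), SEMA3F (0.32) and PLXNA2 (-0.28), each computed as EESF minus WESF. EPHB2 passed in 12 of 12 fits that left out a library, SEMA6C in 11, and SEMA3F and PLXNA2 in 4 each. Extract, dose and batch cannot be told apart in these values. Groups of 3 libraries were too small for a test of single outlying libraries.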

How the results depend on the processing

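At the high doses the number of guidance genes called stayed within 1.5 times the reported count under every alternative, from 17 to 21 with WESF (21 reported) and from 16 to 19 with EESF (17 reported), and no log2 fold change computed again changed sign. The alternatives were DESeq2, its size factors in edgeR, no filter, all genes of the table, libraries thinned to 18727769 counts, all groups in 1 fit, the low dose as reference, the replicate block, and leaving out each library. Calls that were lost under some alternative with WESF were those of SEMA4G (kept in 8 of 14), NRP1 (8 of 14), EFNB3 (12 of 14), SEMA4C (13 of 14) and EPHB6 (13 of 14), and with EESF that of SEMA4G (13 of 14). Against the low dose of EESF, 1 gene of the plexin list and 4 of the ephrin list were called, where 2 and 7 were reported.

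Counts of guidance genes below the high dose, and in the difference between extracts, were less stable. With all groups in the fit, the number with an adjusted p under 0.05 at the low dose of EESF was 5 and in the difference 7, where 9 and 4 were reported. At the low dose of EESF the number of DEGs was 0 with DESeq2, which gave SEMA3D no adjusted p, and 0 with all groups in the fit. Leaving out 1 library gave 1 to 8 genes past this limit at the medium dose of WESF, 6 to 15 at the medium and 2 to 14 at the low dose of EESF, and 1 to 8 in the difference. DEGs then numbered 0 to 2 at the medium and 0 to 2 at the low dose of EESF and 0 to 1 in the difference. The cause was not tested.

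Whether replicate numbers pair treated with vehicle libraries cannot be told from these data, since groups of 3 libraries are too small. Deviations of same-numbered treated and vehicle libraries from their group means had correlations between -0.077 and 0.08. Between the vehicles these correlations were 0.13, 0.03 and 0.042 for the same number and -0.11 to 0.068 for different numbers, and each vehicle A library was closest to the vehicle B library of its own number (chi-square per degree of freedom 3.33 to 3.61, against 4.3 to 11.2 for the other pairs of A and B). With the block, 3 genes passed in the difference between extracts, where 4 were reported. With the replicate number as a block, 3 genes passed at the medium dose of WESF, where 6 were reported. Depth limits SEMA3D, SEMA4A and the other genes near 1 CPM.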
